A study of Mus musculus with 14 samples.

Results

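The enteroendocrine transcription factors *Neurog3*, *Neurod1*, *Insm1*, *Pax4*, *Pax6*, *Isl1*, *Rfx6*, *Nkx2-2* and *Fev* were followed in RNA sequencing of mouse colon. They were taken by gene name, and all 9 were found among the 55889 genes listed without dextran sulfate sodium (DSS) and among the 54721 genes listed after DSS. DSS is a salt given in drinking water that injures the colon epithelium. The study compared WT mice with miR-29ab1-/- mice, which carry a germline deletion of the cluster encoding miR-29a and miR-29b-1, in a C57BL/6N background at 8 to 12 weeks of age. The mice without DSS numbered 4 WT and 4 miR-29ab1-/-, and those given 3.5% DSS for 3 days numbered 3 of each genotype. As the deletion is present in every cell of the animal, and the RNA came from a mix of cells, no cell type is resolved. Nothing in the labels states that any libraries share an animal.

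Enteroendocrine cells are the hormone-producing cells of the gut epithelium and arise from crypt progenitors. *Neurog3* commits a progenitor to the endocrine fate for a short time, and *Neurod1*, *Insm1*, *Pax4*, *Pax6*, *Isl1*, *Rfx6*, *Nkx2-2* and *Fev* act in or after that step to set endocrine differentiation and hormone choice. Because such cells are rare, their regulators give few reads in RNA of mixed cells. MicroRNAs of the miR-29 family pair through a shared seed with matching sites in 3′ UTRs and lower the messages that carry them.

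The mature sequences show which miR-29 family members the deletion removed and which it left. In the lines that follow, from RefSeq on GRCm38.p6, capitals mark the seed, bases 2 to 8, which was the same in all of them. The miR-29a-3p gene lies on chromosome 6 in the deleted cluster, at chr6:31062673-31062694 on the minus strand. Identical miR-29b-3p molecules come from the deleted copy at chr6:31063025-31063047 and from an undeleted copy at chr1:195037091-195037113. The undeleted miR-29c-3p lies at chr1:195037600-195037621.
miR-29a-3p: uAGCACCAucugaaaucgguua
miR-29b-3p: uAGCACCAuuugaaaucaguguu
miR-29c-3p: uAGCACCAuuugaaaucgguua

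The longest annotated 3′ UTR of each factor was searched for the seed matches TGGTGCT and GGTGCTA, alone or together as TGGTGCTA, on the transcript strand. A match was present in 2 of the 9 factors (22.2%), *Neurog3* and *Isl1*, against 16% of 21015 protein-coding genes. The 7-base match TGGTGCT or the longer TGGTGCTA was found in 1 of the 9 (11.1%), against 13.1% of those genes. Each match is shown within 30 bases of GRCm38, with the match in capitals. The *Neurog3* stretch is chr10:62134123-62134152 on the plus strand, and the *Isl1* stretch is chr13:116299022-116299051 on the minus strand.
Neurog3: tctgggtggtgGGTGCTAgtggaaagggag
Isl1: cctattctgaaTGGTGCTgtttctatattg
Neither of these factors was called different between the genotypes in the comparisons that follow. *Neurog3* was under the count filter after DSS, so it could not be called between the genotypes there. The members without a match were *Neurod1*, *Insm1*, *Pax4*, *Pax6*, *Rfx6*, *Nkx2-2* and *Fev*.

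All 9 are protein-coding genes with the same position and length in both tables. On GRCm38 they lie at chr10:62133090-62134763 (*Neurog3*), chr2:79452521-79456751 (*Neurod1*), chr2:146221921-146225020 (*Insm1*), chr6:28442334-28449353 (*Pax4*), chr2:105668900-105697364 (*Pax6*), chr13:116298281-116309689 (*Isl1*), chr10:51677756-51730432 (*Rfx6*), chr2:147177546-147194243 (*Nkx2-2*) and chr1:74881509-74885419 (*Fev*). *Pax4* is the only one on the chromosome of the deletion, 2.61 Mb from the miR-29a and miR-29b-1 hairpins. *Neurog3* lies wholly inside *Fam241b*, a gene of the opposite strand with 249 to 311 reads per mouse without DSS and 407 to 578 after DSS. *Cerkl*, on the strand of *Neurod1* and overlapping it, had 0 to 21 and 0 to 5 reads, and the antisense genes at *Pax6* and *Nkx2-2* had at most 8. Since the use of strand in the counting is not given in the sources used here, reads of *Neurog3* and of its antisense partner could not be told apart.

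Total reads on genes were 17177177 to 18185020 in WT, 14231157 to 16100607 in miR-29ab1-/-, 20506610 to 22990024 in WT after DSS and 20076719 to 23153149 in miR-29ab1-/- after DSS, so every WT library without DSS was larger than every miR-29ab1-/- library. A level of 3 reads, the floor used here, was 0.165 to 0.211 CPM (counts scaled to library size by TMM) without DSS and 0.130 to 0.149 CPM after DSS, which covers counting error only. The hairpin of miR-29a had 0 reads in every mouse, and that of miR-29b-1 had at most 1, so neither checks the genotype. *Lncpint*, a noncoding gene, had 7 to 23 reads in WT and 1386 to 2889 in miR-29ab1-/- mice, and 6 to 14 against 706 to 1144 after DSS, which separated the labelled genotypes in all 14 mice. The labels name crypts of the small intestine and the study names colon tissue. Without DSS, 11 epithelial genes summed to 13972 to 18324 CPM and 7 smooth muscle genes to 21.5 to 29.4 CPM. Whether crypts or whole tissue were sequenced was not tested. The 7 colon genes measured summed to 2022 to 5212 CPM without DSS and 5114 to 6875 after DSS, where 9 small-intestine genes summed to 20.8 to 39.7 and 32.9 to 59.4.

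The factors were scarce. Summed over the 9, reads numbered 222 to 408 for WT and 140 to 220 for miR-29ab1-/- mice without DSS, against 120 to 201 and 96 to 146 after DSS. In CPM the sum was 17.5 ± 3.79 (SD, n = 4) in WT, 12.5 ± 2.02 (n = 4) in miR-29ab1-/-, 6.59 ± 1.57 (n = 3) in WT after DSS and 5.74 ± 0.569 (n = 3) in miR-29ab1-/- after DSS. The genotypes overlapped without DSS, at 13.2 to 22.4 against 10.01 to 14.8 CPM, whereas every mouse after DSS was below every mouse without it. Fewer endocrine cells and less RNA per endocrine cell cannot be told apart in such RNA of mixed cells.

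**Figure D1:**
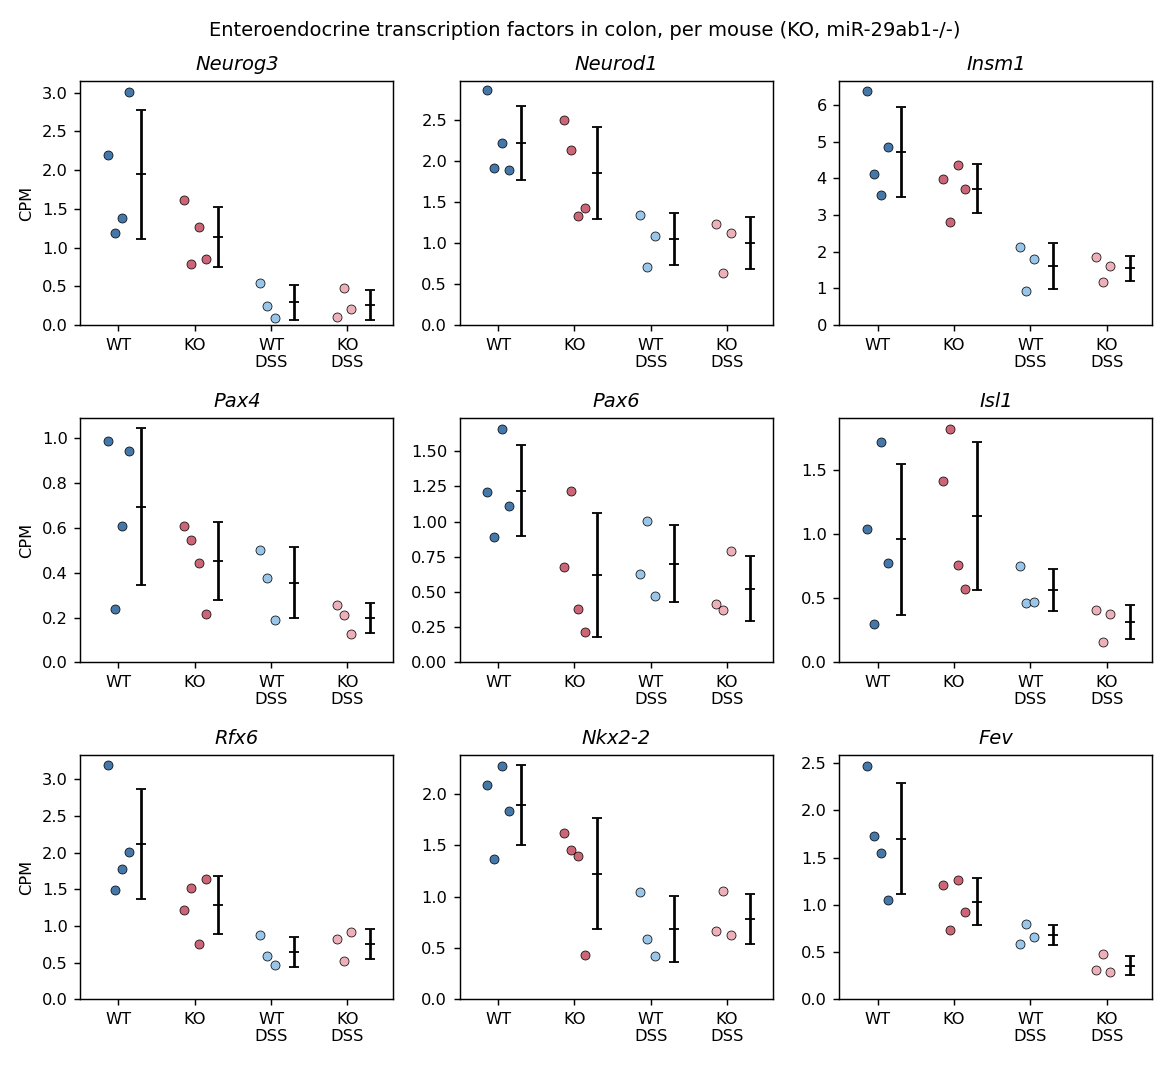
Level of each of the 9 factors in CPM (linear axis from 0), 1 point per mouse, in WT and miR-29ab1-/- mice (KO) without DSS (4 each) and after DSS (3 each); bars are the mean ± SD. The genotypes overlap for every factor without DSS, and for all but *Isl1* and *Fev* after DSS, while *Neurog3* and *Insm1* lie lower after DSS in both genotypes.

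Levels between genes were compared as CPM per kb of gene length. In WT mice without DSS the order was *Insm1* (1.52 ± 0.395 CPM per kb), *Neurog3* (1.16 ± 0.496), *Fev* (1.05 ± 0.363), *Neurod1* (0.813 ± 0.166), *Nkx2-2* (0.658 ± 0.136), *Rfx6* (0.527 ± 0.186), *Pax4* (0.481 ± 0.242), *Isl1* (0.242 ± 0.1496) and *Pax6* (0.104 ± 0.0276; SD, n = 4 each). All neighbours in this order overlapped between mice. In miR-29ab1-/- mice the order was the same except that *Neurod1* (0.677 ± 0.205) came before *Fev* (0.640 ± 0.156), and the only neighbours without overlap were *Isl1* and *Pax6*. *Insm1*, a zinc-finger repressor needed for endocrine differentiation, was the highest per kb and *Pax6*, a paired-box factor of hormone-producing cells, the lowest in all 4 groups. *Pax6* is also the longest, at 11694 bases, and the scale assumes this whole length for it. After DSS *Neurog3* was the sixth in both genotypes, at 0.177 ± 0.136 CPM per kb in WT and 0.157 ± 0.115 in miR-29ab1-/- mice (n = 3 each), after having been the second in both without DSS. Neighbours in the DSS groups overlapped as well, except *Isl1* and *Pax6* in WT.

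**Figure D2:**
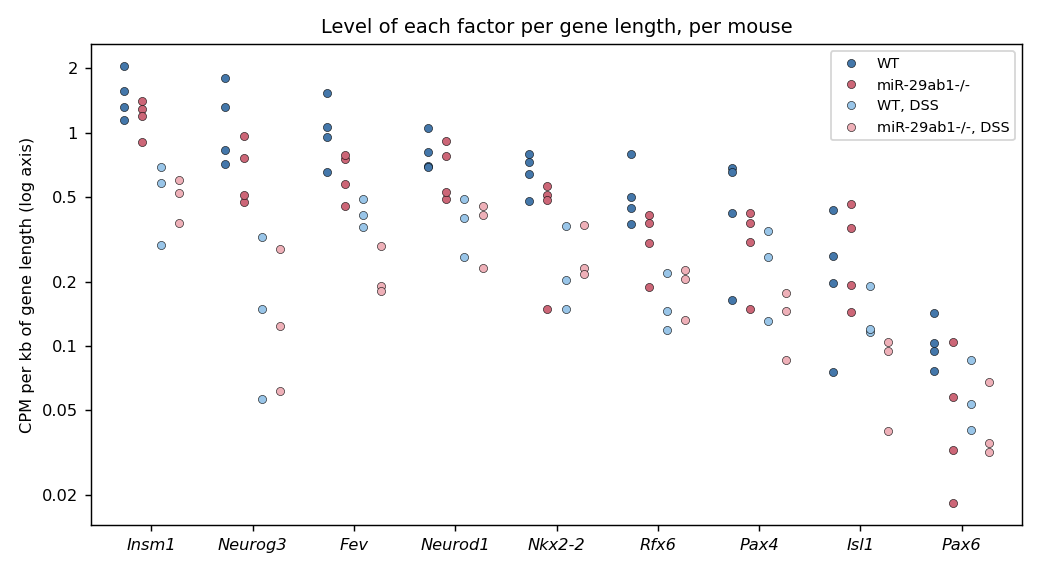
Level of each factor per mouse in CPM per kb of gene length (log axis), 1 point per mouse coloured by group, with factors ordered by their WT mean without DSS. *Insm1* is at the top and *Pax6* at the bottom in each group, and *Neurog3* moves furthest between the mice without DSS and those after it.

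Without DSS, no factor was called different between miR-29ab1-/- and WT mice, though 8 of the 9 had a lower estimate in miR-29ab1-/- mice, where 50.5% of all 15441 tested genes had one. All 9 passed the filter on low counts. The count past an unadjusted p of 0.05 in edgeR's quasi-likelihood test was 0 of 9, against 3.67% of all genes, and past a Benjamini-Hochberg adjusted p of 0.05 it was also 0 of 9, against 0.0194%. DESeq2 gave 0 and 0 as well. The median log2 fold change of the factors was -0.62, and that of all genes was -0.0016. No factor had groups without overlap in CPM, where 0.92% of genes were lower and 1.11% higher without overlap.

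Among the inducers, *Neurog3* was at 2.20, 1.19, 1.38 and 3.00 CPM in WT mice 1 to 4 and at 1.62, 0.790, 1.27 and 0.858 CPM in miR-29ab1-/- mice 1 to 4. The highest levels were in WT mice 1 and 4, and the groups overlapped. Its log2 fold change was -0.78 (SE 0.38, 95% interval -1.62 to 0.067, adjusted p = 0.9995 as for all 9), and an exact two-sided permutation test of CPM gave p = 0.143. *Neurod1*, the bHLH factor that follows *Neurog3*, was at 2.22 ± 0.452 CPM in WT and 1.85 ± 0.560 in miR-29ab1-/- mice, with a log2 fold change of -0.26 (interval -0.92 to 0.39). *Insm1* was at 6.38, 4.11, 3.55 and 4.84 CPM in WT and at 3.98, 2.80, 4.37 and 3.72 CPM in miR-29ab1-/- mice. The 2 highest values were from WT mice, the lowest was from a miR-29ab1-/- mouse, and the log2 fold change was -0.34 (SE 0.25, interval -0.88 to 0.20).

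*Rfx6* and *Fev* had the smallest exact p of the 9. *Rfx6*, a winged-helix factor of the endocrine lineage, was at 3.19, 1.49, 1.77 and 2.00 CPM in WT and at 1.21, 1.52, 0.761 and 1.65 CPM in miR-29ab1-/- mice. Its highest values were in WT mice 1 and 4, and the ranges overlapped between 1.49 and 1.65. The log2 fold change was -0.72 (SE 0.35, interval -1.48 to 0.048). *Fev*, an ETS factor best known from serotonergic cells, was at 2.47, 1.73, 1.55 and 1.06 CPM in WT and at 1.21, 0.730, 1.27 and 0.930 CPM in miR-29ab1-/- mice. Only WT mouse 4 lay within the range of the miR-29ab1-/- mice, and the log2 fold change was -0.71 (SE 0.34, interval -1.47 to 0.044). For each of them the exact permutation test gave p = 0.0857, and the smallest p that 4 against 4 mice can give is 0.0286.

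The homeodomain and paired-box factors were *Pax6*, *Nkx2-2*, *Pax4* and *Isl1*, and none of them was called. *Pax6* was at 1.21, 0.893, 1.66 and 1.11 CPM in WT and at 0.675, 1.22, 0.380 and 0.215 CPM in miR-29ab1-/- mice, and of the latter only mouse 2 reached the WT range. Its log2 fold change of -0.95 (SE 0.48, interval -2.002 to 0.10; exact permutation p = 0.114) was the most negative of the 9. *Nkx2-2*, a homeodomain repressor of alternative endocrine fates, was at 1.89 ± 0.391 against 1.23 ± 0.539 CPM, with miR-29ab1-/- mouse 4 far below the rest at 0.429 CPM, and *Pax4* was at 0.696 ± 0.349 against 0.453 ± 0.173 CPM from 3 to 18 reads per mouse. Their log2 fold changes were -0.62 (interval -1.46 to 0.23) and -0.61 (interval -1.71 to 0.50). *Isl1*, a LIM homeodomain factor of hormone-producing cells, was at 1.04, 0.298, 1.72 and 0.779 CPM in WT and at 1.42, 1.82, 0.761 and 0.572 CPM in miR-29ab1-/- mice. It was the only one with a higher mean in miR-29ab1-/- mice, by a log2 fold change of 0.25 (SE 0.52, interval -0.90 to 1.41), and the ranges overlapped almost wholly.

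Single mice moved these values across an unadjusted p of 0.05 but never across an adjusted one. Without WT mouse 2, *Neurog3* (log2 fold change -0.95) and *Rfx6* (-0.85) passed it in edgeR's test. By the chi-square of counts per gene, that mouse differed from the other WT mice by 35.5, 52.0 and 93.6. It differed from miR-29ab1-/- mice 1 to 4 by 41.2, 27.3, 18.2 and 58.3. Without WT mouse 4, *Fev* did (-0.89), without miR-29ab1-/- mouse 1 *Neurog3* did (-0.995), and without miR-29ab1-/- mouse 2 *Pax6* did (-1.498). In miR-29ab1-/- mouse 4, which had the lowest sum of the factors, pancreatic acinar genes reached 26.8 CPM against at most 2.38 in any other mouse, while the islet genes *Ins1* and *Ins2* were at 0 in every mouse. Without that mouse the median of the factors was -0.39 and no factor passed either threshold. Leaving out WT mouse 2 or miR-29ab1-/- mouse 2 turned the *Isl1* estimate below 0, to -0.038 and -0.059.

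After DSS, no factor was called different between the genotypes either. Among the DSS libraries, 1 stood apart from its group. By the chi-square of counts per gene, miR-29ab1-/- DSS mouse 3 differed from the 3 WT DSS mice by 14.96 to 38.6 and from the other miR-29ab1-/- DSS mice by 90.2 and 171, although its 706 *Lncpint* reads matched its label. Without it, 0 factors passed an unadjusted or adjusted p of 0.05 in edgeR, where 2530 and 93 of all genes did, and *Fev* (-0.79), *Isl1* (-0.96) and *Pax6* (-0.84) had the lowest estimates. *Neurog3* and *Pax4* were too low for the filter, and of the 7 tested none passed an unadjusted p of 0.05 in edgeR, against 7.23% of 14908 genes, or an adjusted p of 0.05, against 0.0134%. The median log2 fold change was -0.063, and that of all genes -0.0051. The median changed to 0.16 without WT DSS mouse 1, -0.28 without WT DSS mouse 2, and -0.23 and -0.16 without miR-29ab1-/- DSS mouse 1 and 3. Over all 9, the ratio of the miR-29ab1-/- to the WT mean ran from 0.527 to 1.17 with a median of 0.886, where without DSS it ran from 0.510 to 1.19 with a median of 0.648. The groups did not overlap for 2 of the 7 tested, *Isl1* and *Fev*, both lower in miR-29ab1-/- mice, against 6.29% of genes lower in this way. The exact test of 3 against 3 mice cannot give a p below 0.1.

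*Fev* was at 0.585, 0.794 and 0.663 CPM in WT and at 0.308, 0.477 and 0.291 CPM in miR-29ab1-/- mice after DSS. Every WT mouse was above every miR-29ab1-/- mouse, and the log2 fold change was -0.93 (SE 0.44, interval -1.92 to 0.065, edgeR adjusted p = 0.668; exact permutation p = 0.1). *Isl1* was at 0.753, 0.460 and 0.474 CPM in WT and at 0.411, 0.159 and 0.374 CPM in miR-29ab1-/- mice, again without overlap, with a log2 fold change of -0.81 (SE 0.51, interval -1.97 to 0.34; exact permutation p = 0.1). The counts behind *Isl1* were 3 to 18 reads per mouse and those behind *Fev* 6 to 19. *Insm1* was at 1.62 ± 0.627 against 1.55 ± 0.349 CPM and *Neurod1* at 1.05 ± 0.316 against 0.997 ± 0.318, with log2 fold changes of -0.062 for *Insm1* and -0.063 for *Neurod1* and intervals from -0.95 to 0.82 and from -0.99 to 0.87, wide enough to hold the estimates seen without DSS.

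Of the others tested after DSS, *Pax6* was at 0.701 ± 0.272 against 0.524 ± 0.231 CPM (log2 fold change -0.40, interval -1.51 to 0.71). *Rfx6* was at 0.646 ± 0.209 against 0.756 ± 0.201 CPM (0.23, interval -0.74 to 1.20) and *Nkx2-2* at 0.686 ± 0.321 against 0.784 ± 0.240 CPM (0.18, interval -0.88 to 1.23), the only 2 with a higher mean in miR-29ab1-/- mice. *Neurog3* was at 0.544, 0.251 and 0.0948 CPM in WT and at 0.103, 0.477 and 0.208 CPM in miR-29ab1-/- mice, from 2 to 13 reads, and the exact permutation test gave p = 0.8. *Pax4* was at 0.502, 0.376 and 0.190 against 0.257, 0.212 and 0.125 CPM, from 3 to 12 reads, with an exact permutation p = 0.3.

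**Figure D3:**
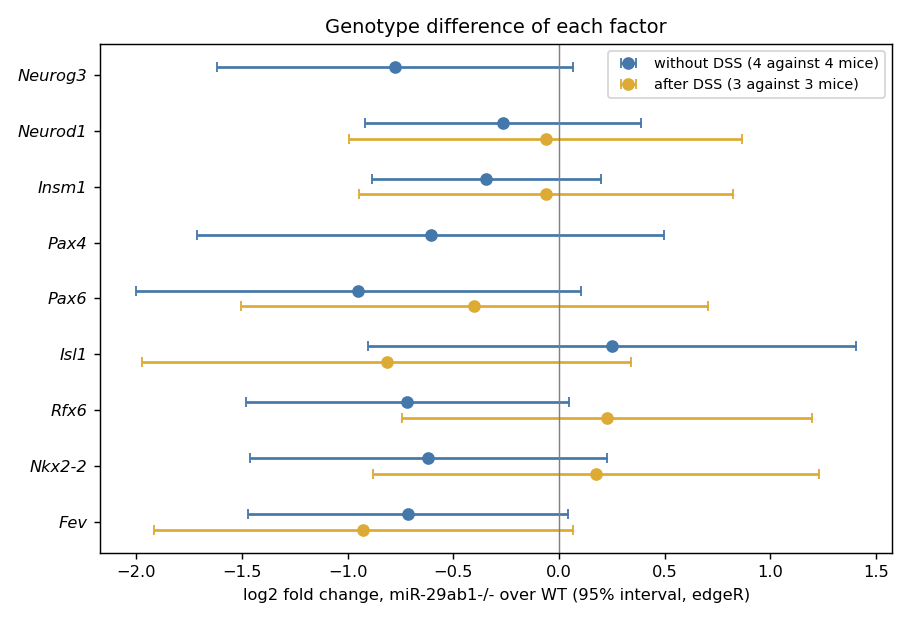
Log2 fold change of each factor between miR-29ab1-/- and WT mice (edgeR) with its 95% interval, without DSS (4 against 4 mice) and after DSS (3 against 3 mice). Every interval crosses 0, 8 of 9 estimates without DSS lie left of it, and *Neurog3* and *Pax4* have no estimate after DSS.

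Whether the genotype difference itself changed with DSS was tested in a model over all 14 mice, on the 16370 genes that are listed in both tables and passed the count filter. None of the 9 factors passed an unadjusted p of 0.05, against 4.03% of genes, or an adjusted one, against 0% of genes, and DESeq2 gave none at an adjusted p of 0.05. The interaction on the log2 scale ran from -1.07 for *Isl1* (SE 0.79) to 0.95 for *Rfx6* (SE 0.54), and the smallest edgeR adjusted p was 0.987. Thus the non-overlap of *Isl1* and *Fev* after DSS was not shown to differ from their overlap without it.

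The larger difference was between the experiments. Mice after DSS had lower *Neurog3*, *Insm1* and *Fev* than mice without it in both genotypes, and lower *Rfx6* and *Nkx2-2* in WT and lower *Isl1* in miR-29ab1-/- mice. The DSS and DSS-free mice are in separate tables, so DSS and the experiment cannot be told apart. In the same fit *Muc2*, the main goblet cell mucin, had 396 to 2961 reads per mouse without DSS and 66937 to 189668 after DSS, at 1 unchanged gene model, a difference whose source was not tested. Of the genes fitted, 92.8% had the same length in both tables, the 9 factors among them. Both DSS comparisons share no mice with each other, but each shares its mice with the genotype comparisons.

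In WT mice, 5 of the 9 factors passed an adjusted p of 0.05 in edgeR, all lower after DSS, where 38.3% of all genes passed and 18.1% were lower. The median of the factors was -1.01, and that of all genes was -0.022. *Neurog3* went from 1.19 to 3.00 CPM without DSS to 0.0948 to 0.544 CPM after it, each scaled within its table, and no mice overlapped. Its log2 fold change was -2.38 (SE 0.57, edgeR adjusted p = 0.00442), the most negative of the 9. *Neurog3* had 2 to 13 reads per WT mouse after DSS, against 20 to 54 without it. The lowest lay under the floor of 3 reads, and in the DSS experiment alone the gene was under the count filter. *Rfx6* (-1.40, SE 0.38, adjusted p = 0.0102) and *Insm1* (-1.24, SE 0.31, adjusted p = 0.00616) were next, followed by *Nkx2-2* (-1.15, SE 0.43, adjusted p = 0.0478) and *Fev* (-1.01, SE 0.36, adjusted p = 0.0355). *Neurod1* had -0.78 (SE 0.34, adjusted p = 0.0836), and *Pax4*, *Pax6* and *Isl1* had -0.65, -0.49 and -0.47. Groups did not overlap for 6 of the 9, the 5 called and *Neurod1*, each lower, against 21.1% of genes lower in this way. The calls of *Neurog3* and *Insm1* held when any 1 of the 14 mice was left out. That of *Rfx6* was lost without WT DSS mouse 3 (-1.22, edgeR adjusted p = 0.0514). That of *Fev* was lost without WT mouse 1, 2 or 3 or any of the 3 WT DSS mice (adjusted p up to 0.114), and that of *Nkx2-2* without any of 11 mice (adjusted p up to 0.174), all but WT mouse 2, miR-29ab1-/- mouse 4 and WT DSS mouse 1.

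In miR-29ab1-/- mice, 4 of the 9 passed an adjusted p of 0.05 in edgeR, all lower after DSS, where 45.9% of all genes passed and 22.7% were lower. *Neurog3* went from 0.790 to 1.62 CPM to 0.103 to 0.477 CPM (log2 fold change -1.80, SE 0.60, edgeR adjusted p = 0.0221). Its reads per mouse were 12 to 24 without DSS and 2 to 9 after it. *Isl1* (-1.54, SE 0.59, adjusted p = 0.0431), *Fev* (-1.22, SE 0.40, adjusted p = 0.0196) and *Insm1* (-0.96, SE 0.32, adjusted p = 0.0217) were the others. *Pax4* had -0.91, *Neurod1* -0.58, *Rfx6* -0.45, *Nkx2-2* -0.36 and *Pax6* 0.056, with a median of -0.91 over the 9. The 4 called factors were those without overlap, against 23.9% of genes lower in this way. None of these calls held in every refit without 1 mouse. *Neurog3* lost its call without miR-29ab1-/- mouse 1 or miR-29ab1-/- DSS mouse 1 or 3 (adjusted p up to 0.0924), *Fev* without DSS mouse 1 or 3 of that genotype (up to 0.0740) and *Insm1* without miR-29ab1-/- mouse 3 or DSS mouse 2 (up to 0.106). The call of *Isl1* was lost without any of 8 mice, which were WT mouse 4, miR-29ab1-/- mice 1 and 2, WT DSS mice 2 and 3 and all miR-29ab1-/- DSS mice (up to 0.162).

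**Figure D4:**
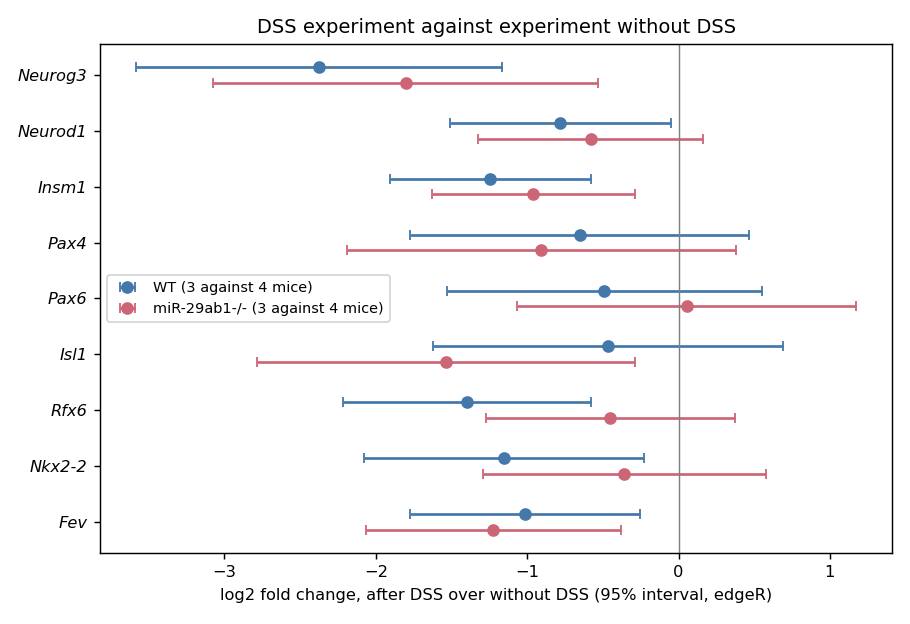
Log2 fold change of each factor between the experiment after DSS and the experiment without DSS (edgeR, 1 model over 14 mice) with its 95% interval, in WT and in miR-29ab1-/- mice (3 against 4 mice each). *Neurog3* has the most negative estimate in both genotypes, and *Pax6* in miR-29ab1-/- mice is the only estimate above 0.

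General epithelial genes moved in the opposite direction in this fit. All 4 tested tuft cell genes had lower estimates after DSS in both genotypes, as most factors did, and genes of goblet cells were mixed. Of 11 epithelial genes, 10 were higher after DSS in each genotype at an adjusted p of 0.05, and their sum was 13972 to 18324 CPM without DSS and 23942 to 29989 CPM after it. Tuft cell genes had 0 of 4 called in WT (median -0.47) and 4 of 4 lower in miR-29ab1-/- mice (median -0.89), and of 6 goblet cell genes 2 were lower and 3 higher in WT and 3 lower and 3 higher in miR-29ab1-/- mice. With libraries scaled to the epithelial genes instead of all genes, all but *Isl1* in WT and all but *Pax6* in miR-29ab1-/- mice passed an adjusted p of 0.05, with medians of -1.90 and -1.79 over the factors. Under that scaling 71.2% and 73.3% of all genes passed as well, and the median of all genes shifted to -0.87 and -0.93. *Neurog3*, *Insm1* and *Fev* were lower in both genotypes under either scaling. As scaling to genes that were higher after DSS moves other genes down, it was no separate check on factors already lower.

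The products of enteroendocrine cells, such as granins, hormones and the enzymes that make them, did not follow the factors after DSS with libraries scaled to all genes. They were not examined with scaling to epithelial genes, which moved the median of all genes to -0.87 in WT and -0.93 in miR-29ab1-/- mice. The 22 product genes summed to 372 to 488 CPM in WT and 221 to 337 CPM in miR-29ab1-/- mice without DSS, and to 403 to 428 and 353 to 456 CPM after DSS. In miR-29ab1-/- mice *Tac1* alone was at 4.77 ± 2.09 CPM without DSS and 77.5 ± 52.1 CPM after it. The 9 factors equalled 3.55% to 4.596% of the product sum in WT and 4.01% to 4.53% in miR-29ab1-/- mice without DSS, ranges that overlap. After DSS they equalled 1.37% to 1.97% and 1.11% to 1.72%, below every mouse without DSS in both genotypes. Of the 20 product genes tested between the experiments, 3 rose and 1 fell in WT, with a median of 0.36, and 5 rose and 1 fell in miR-29ab1-/- mice, with a median of 0.55. *Pyy*, the hormone of colonic L cells, rose by 1.19 in WT and 1.18 in miR-29ab1-/- mice on the log2 scale, *Tac1*, a tachykinin precursor, by 2.01 and 4.32, and *Ddc*, an enzyme of serotonin synthesis, by 0.78 and 0.51. *Gcg* (0.63) and *Cck* (1.60), named after their values were seen, rose in miR-29ab1-/- mice, and *Pcsk1*, a prohormone convertase, fell in both (-0.78 and -0.69). Only *Pcsk1* among the products thus changed in the direction of the factors at an adjusted p of 0.05.

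**Figure D5:**
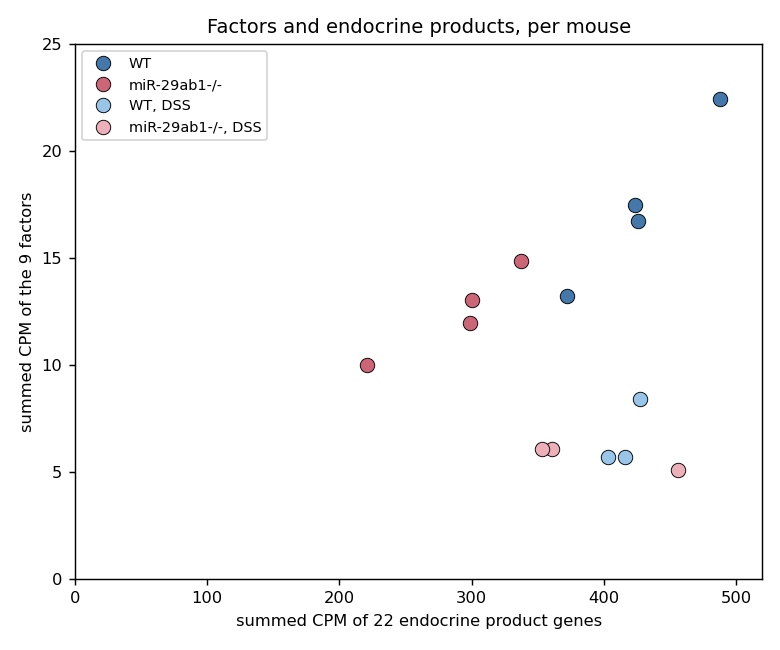
Summed CPM of the 9 factors (vertical axis) against summed CPM of 22 endocrine product genes (horizontal axis), 1 point per mouse, coloured by genotype and DSS, with both axes linear from 0. Mice without DSS lie along 1 band in both genotypes, with the genotypes apart on the product axis and overlapping on the factor axis, and the 6 mice after DSS lie below it at 5.08 to 8.40 CPM of the factors.

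Between the genotypes, the product genes mostly had lower estimates in miR-29ab1-/- mice, as the factors did. Without DSS, 19 of 20 tested product genes did, with a median of -0.48, and 6 were lower and 0 higher at an unadjusted edgeR p of 0.05, though 0 at an adjusted one. *Chga*, a granin that marks endocrine cells in general, was at 67.6 ± 11.3 CPM in WT and 35.6 ± 3.79 CPM in miR-29ab1-/- mice (log2 fold change -0.93, SE 0.13, edgeR adjusted p = 0.0971), and *Chgb* at 107 ± 22.95 and 57.3 ± 8.67 CPM (-0.91, SE 0.16, adjusted p = 0.368). *Pcsk1* had -0.49 and *Ddc* -0.097. After DSS the median was -0.24, and 4 products were lower and 0 higher at an unadjusted p of 0.05, namely *Pyy* (-0.59), *Chga* (-0.44), *Pcsk1* (-0.41) and *Ddc* (-0.36). *Tac1* had 1.89 and *Chgb* -0.30 without passing it.

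Other regulators of the endocrine lineage were not called different between genotypes either. Of 18 such genes, 14 were tested in each experiment, and none passed an adjusted p of 0.05. Without DSS their median was 0.088, with *Myt1*, a zinc-finger partner of *Neurog3*, at -1.06 and its relative *St18* at 0.62 past an unadjusted p of 0.05, while the abundant *Foxa1* (-0.032), *Foxa2* (0.31), *Sox4* (-0.18) and *Tox3* (-0.020) did not pass it. After DSS *Sox4* (-0.81) and *Pdx1* (1.44) passed it, and the median was -0.091. Between the experiments most calls of this list were lower after DSS, with 7 lower and 1 higher of 15 tested in WT and 9 lower and 1 higher in miR-29ab1-/- mice at an adjusted edgeR p of 0.05. *Sox4*, an SRY-related factor of early endocrine progenitors, was lower in both (-2.60 in WT and -3.22 in miR-29ab1-/- mice), and *Myt1* was lower in WT (-1.65). The 1 higher in both was *Hhex* (4.70 and 3.04), named after its values were seen.

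Genes that act before *Neurog3*, in Notch signalling and the choice of a secretory fate, showed a like split. Of 10, none passed an unadjusted p of 0.05 between genotypes without DSS (median -0.035), and after DSS *Atoh1*, the switch to the secretory fate, (-0.39) and *Ascl2*, a stem cell factor (-2.42), passed it, without an adjusted call. *Hes1* had -0.21 without DSS and -0.015 after it, and *Sox9* 0.086 and -0.23. Between the experiments 5 of the 10 were lower after DSS in WT and 8 of the 10 in miR-29ab1-/- mice, with none higher. *Atoh1* (-0.78 and -1.46), *Notch1* (-1.17 and -1.31) and *Sox9* (-0.55 and -0.86) were lower in WT and miR-29ab1-/- mice, and *Gfi1* (-1.27 and -1.16) and *Dll4* (-0.76 and -0.88), named after their values were seen, completed the 5.

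Some of the factors are also made outside the gut endocrine lineage, in neurons or pancreas, so markers of these cells were measured. Enteric neuron genes (11) summed to 4.71 to 5.48 CPM in WT and 4.19 to 5.60 in miR-29ab1-/- mice without DSS, and 4.01 to 5.14 and 4.12 to 7.94 after DSS. Enteric glia genes (6) summed to 269 to 388 and 307 to 378 CPM without DSS and 287 to 350 and 233 to 349 after DSS, with *Sox10* at 0 in all mice. Most of this glia sum was *Erbb3*, with means of 313 and 333 CPM in WT and miR-29ab1-/- mice without DSS and 323 and 287 after it. Islet genes stayed at or below 1.10 CPM in every mouse. Smooth muscle genes (7) summed to 21.5 to 29.4 CPM without DSS and 11.4 to 17.1 after DSS, and leukocyte genes (6) to 34.3 to 148 and 26.8 to 84.2. Most of the smooth muscle sum was *Smtn*, with means of 20.1 and 23.6 CPM in WT and miR-29ab1-/- mice without DSS and 12.6 and 10.3 after it. *Acta2*, *Myh11*, *Des*, *Actg2* and *Cnn1*, named after their values were seen, had 10 to 27 reads each over all mice without DSS and 8 to 33 after it. Between genotypes no tested gene of these lists, nor of the epithelial, colon and small intestine lists, passed an unadjusted edgeR p of 0.05 in either experiment. Many were too low to be tested. Those tested without and after DSS were 3 and 2 enteric neuron, 3 and 2 glia, 2 and 2 smooth muscle and 6 and 4 leukocyte genes. Of the islet and acinar genes 1 and 0 were tested, so that list could show no difference after DSS. Tuft cell genes had 3 of 4 higher without DSS, *Dclk1* (0.63), *Trpm5* (0.55) and *Avil* (0.78), and goblet genes 1 of 6, *Clca1* (0.64), all named after their values were seen and none at an adjusted p of 0.05. Without DSS the sums of tuft genes were 59.9 to 107 CPM in WT and 108 to 160 CPM in miR-29ab1-/- mice, and their part in the factor levels was not tested.

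Across the 14 mice, with group means removed, the factors varied together only in part. Pearson's r of log2 CPM over the 21 pairs of the 7 factors that passed the filter in both tables ran from -0.40 (*Insm1* and *Pax6*) to 0.70 (*Pax6* and *Isl1*), with a median of 0.23 and 15 pairs above 0. *Neurod1* and *Isl1* had 0.69, *Neurod1* and *Rfx6* 0.59, and *Fev* was below 0 with *Neurod1*, *Pax6*, *Isl1* and *Rfx6*. At this low number of reads, counting error enters each of these values, and all genes of a mouse share its library scaling. The genes most like *Insm1* over 16370 genes were *Bcat2* (0.89), *Lmo4* (0.86) and *Utp14a* (0.86), and those most like *Neurod1* were *Gm20275* (0.96), *Gpld1* (0.90) and *Eml1* (0.87).

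Because several factors were lower together after DSS, the 250 bases before the start sites were read from RefSeq (GRCm38.p6), which gave 8 promoters for 7 of the 9 factors. The E-box CANNTG, the core bound by bHLH factors such as *Neurog3* and *Neurod1*, was searched on both strands. It was present in 5 of the 8, against 66.2% of 32851 promoters of that length. Its form CAGATG (or CATCTG on the other strand), which is also a CANNTG, was present in 1 of the 8, *Nkx2-2*, against 14.4%. No promoter was found for *Insm1*, called lower after DSS in WT, or for *Pax4*, not called. Whether E-boxes go with the calls after DSS in WT was not tested. The *Rfx6* and *Fev* promoters, of factors called lower there, held 0. Those of *Neurod1* and *Isl1*, not called there, held 1 each, and the *Pax6* promoters, not called either, 0 and 1. The promoters of *Neurog3* (chr10:62132840-62133089, plus strand) and *Nkx2-2* (chr2:147186403-147186652, minus strand), called lower after DSS in WT, are shown with E-boxes in capitals.
Neurog3: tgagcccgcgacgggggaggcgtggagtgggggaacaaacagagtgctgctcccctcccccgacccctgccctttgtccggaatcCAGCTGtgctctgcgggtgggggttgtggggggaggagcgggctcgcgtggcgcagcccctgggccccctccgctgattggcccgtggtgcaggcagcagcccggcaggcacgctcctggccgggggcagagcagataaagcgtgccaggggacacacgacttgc
Nkx2-2: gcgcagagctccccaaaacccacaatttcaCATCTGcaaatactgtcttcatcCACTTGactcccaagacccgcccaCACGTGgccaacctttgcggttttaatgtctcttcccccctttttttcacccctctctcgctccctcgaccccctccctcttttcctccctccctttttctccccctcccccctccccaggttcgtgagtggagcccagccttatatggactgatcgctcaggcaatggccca
The *Nkx2-2* promoter holds 3 E-boxes and the *Neurog3* promoter 1. A match describes letters in this window and no binding was measured.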

How the data were processed

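RNA of colon from 14 mice was sequenced by the authors (TRIzol, a directional library kit). The authors deposited raw read counts per gene in 1 table per experiment, without normalization. Per the labels HISAT2 and DESeq2 were used, in roles not given in the sources used here. Positions in the tables equal those of GENCODE vM21 (GRCm38) for all 9 factors. FPKM columns (8 and 6) were not used, nor were the authors' group means, fold changes and p-values of their own comparison. Numbers of the DSS mice are those of the table columns.

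Genotypes were compared by edgeR 4.0.16 (R 4.3.3, filterByExpr with minimum count 10 and minimum total 15, TMM, robust quasi-likelihood, Benjamini-Hochberg over all genes tested) on the counts of each table. A model over all 14 mice gave the interaction and DSS comparisons. CPM were compared per factor by two-sided exact permutation. The test was checked on simulated counts, but no outcome is given here, so no error rate at these low counts is stated. Libraries differed beyond sampling noise, with a chi-square per gene of 27.6 to 171 within groups and 14.96 to 191 between them. The study used littermates, and which mice share a litter is not given. Alternatives were DESeq2 1.42.0, RLE factors, scaling to 11 epithelial genes, no filter, all mice in 1 model, a replicate block and each mouse left out. Named genes were the 9 factors and, of 3 fixed lists, the 4 genes with most reads and the 2 with the smallest p per experiment, plus the 3 genes most like *Insm1* and *Neurod1*. The factors and lists were chosen with earlier results of these data known. The value of 1 marker gene is not reported here.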

Additional observations from a re-analysis of the deposited data

How the results depend on the processing

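The genotype counts of the factors stayed at 0 past an adjusted p of 0.05 under every alternative run, in both experiments. Past an unadjusted p of 0.05, 1 factor, *Fev*, appeared without DSS with all 14 mice in 1 model (log2 fold change -0.71), and 1, *Fev* again, after DSS with all 14 mice in 1 model (-0.92) and with scaling to epithelial genes (-1.03). Leaving out 1 mouse gave 0 to 2 without DSS, an interaction median of 0.0088 to 0.47, 2 to 5 adjusted calls for DSS in WT and 1 to 4 in miR-29ab1-/- mice. The WT count fell to 2 or 3 without WT mouse 1 or 3 or WT DSS mouse 2 or 3, and that of miR-29ab1-/- mice to 1 or 2 without miR-29ab1-/- mouse 1 or any DSS mouse of that genotype. With scaling to epithelial genes the DSS calls became 8 in WT (median -1.90) and 8 in miR-29ab1-/- mice at unadjusted and adjusted p (median -1.79), and *Pax6* in miR-29ab1-/- mice turned to -0.82, where 71.2% and 73.3% of all genes were called. With no filter on low counts 3 were called in WT, and *Fev* lost its call in miR-29ab1-/- mice. The cause was not tested.

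Estimates that changed sign when 1 mouse was left out were *Isl1* without DSS (-0.059 to 0.69), *Neurod1* (-0.28 to 0.17), *Insm1* (-0.35 to 0.19) and *Nkx2-2* (-0.093 to 0.61) after DSS with the median of the factors (-0.28 to 0.16), the interactions of *Neurog3* (-0.12 to 1.33), *Neurod1* (-0.0067 to 0.44) and *Pax4* (-0.54 to 0.070), and *Pax6* for DSS in miR-29ab1-/- mice (-0.38 to 0.62).

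Over all genes, calls at an adjusted p of 0.05 between genotypes went from 3 to 27 with DESeq2 and 11 with no filter without DSS, and from 2 to 66 and 46 after DSS. At an unadjusted p they went from 566 to 1099 and from 1078 to 1819 with no filter. Without miR-29ab1-/- DSS mouse 3, the genotype calls after DSS became 93 adjusted and 2530 unadjusted, and without each other DSS mouse they were 0 to 2 and 483 to 1085.

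The replicate numbers of the mice without DSS did not pair them, with correlations of deviations between mice of the same number of -0.030, 0.15, -0.19 and -0.13, and only number 2 correlating best with its own number. With the replicate block 0 factors were called at either p and their median was -0.69. After DSS and in the interaction the block was not run, because the DSS columns are numbered otherwise than the labels and could not be matched to single labelled mice. Depth is 1 limit, as 2 to 13 reads of *Neurog3* and 3 to 12 of *Pax4* per mouse after DSS were under the count filter.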
